A study of Homo sapiens with 4 samples.

Results

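NKG2D ligands are the cell surface proteins that NK cells and many T cells read through the activating receptor NKG2D, which is encoded by KLRK1. They resemble MHC class I molecules, but they present no peptide. They are scarce on most healthy epithelial cells and are known to appear after DNA damage, viral infection or oncogenic signalling, when they mark the cell for killing. Human cells have a family of them that falls into 2 gene clusters on chromosome 6. ULBP1, ULBP2, ULBP3, RAET1E, RAET1G and RAET1L lie side by side at 6q25, and MICA and MICB lie in the MHC beside HLA-B. These 8 genes, among 20098 protein-coding genes of the autosomes and chromosome X, are described here by the open chromatin in and around them.

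The data are 4 ATAC-seq peak lists from MCF10A, a nontransformed and immortalized human mammary epithelial cell line, before and after transformation by oncogenic HRas. In ATAC-seq a transposase cuts accessible DNA, and stretches rich in cuts are called as peaks. MCF10A cells (labelled WT, genotype Parental) gave 2 libraries. Cells of the same line labelled HRAS (genotype H-RAS Gv12), which carry HRas with the G12V change from an overexpression vector and are called G12V below, gave the other 2. Both were grown in the same medium with EGF, insulin, hydrocortisone, cholera toxin and horse serum and were used at low passage, and the study describes the libraries of each cell type as biological replicates. The model has limits: it is a single cell line, the oncogene is overexpressed from a vector rather than from its own locus, and the methods also describe a GFP vector, whereas the labels of the control libraries name only parental cells. The genes were chosen because the promoter of ULBP2 was already known to differ between these lists, so every difference between MCF10A and G12V at these genes is a description and carries no test.

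A promoter was taken as the stretch from 1000 bp before to 500 bp after the start site (TSS) of the canonical GENCODE transcript, in the hg19 build. The score of a peak is 10 times the −log10 of its MACS p-value, and since scores depend on depth, each is also given as a percentile, the share of peaks in its own list that score no higher. A promoter or region is called gained where each G12V library had a peak and no MCF10A library did, and lost where the pattern was the opposite. The lists differed in length: MCF10A replicates 1 and 2 held 12902 and 34484 peaks, and G12V replicates 1 and 2 held 14057 and 46698. Thus in both cell types replicate 2 held the longer list, and of the promoters with a peak in G12V replicate 2 only 49.8% had a peak in G12V replicate 1, against 83.8% in MCF10A replicate 2. A missing peak in replicate 1 of either cell type therefore does not show that the chromatin was closed. Read counts were not used here, and accessibility in few cells cannot be told apart from weak accessibility in all of them. Among 8 epithelial marker genes, promoter peaks were present at 2 and 4 in the MCF10A libraries and at 0 and 1 in the G12V libraries. Over all promoters 22.2% and 44.5% had a peak in the MCF10A libraries, and 24.2% and 47% in the G12V libraries. KRT5, KRT14, KRT18 and CDH1 had none in any library, and KRT8 and EPCAM had a peak in MCF10A replicate 2 alone. ITGB4, an integrin of basal epithelial cells, was lost, as were 0.512% of all promoters. LAMB3 had a peak in both MCF10A libraries and in G12V replicate 2 (percentile 53.9). Of 6 leukocyte markers only CD14 had a promoter peak, in both MCF10A libraries and G12V replicate 2, and of 4 fibroblast markers only PDGFRA did, in MCF10A replicate 2. Their part in the results below was not tested. The promoter window of HRAS itself had a peak in both MCF10A libraries (percentiles 42.2 and 26.6) and in neither G12V library, a pattern shown by 0.512% of promoters. The peaks did not overlap. That of MCF10A replicate 1 (535550 to 535849) covered the TSS at 535576, and that of MCF10A replicate 2 (534504 to 535229) lay inside the gene. The introduced HRas copy comes from a vector, so its presence cannot be read from this promoter.

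The letters just upstream of the start sites show what the promoters of the 6q25 cluster share and where they part. The 250 bases before the TSS are given for ULBP2, whose promoter carried the clearest difference, and for RAET1G, RAET1L, ULBP3 and ULBP1, which differed from it in their peaks. All were read 5′ to 3′ along the gene from the GRCh37 (hg19) genome. The stretches are chr6:150262900-150263149 on the plus strand for ULBP2, chr6:150244258-150244507 on the minus strand for RAET1G, chr6:150346669-150346918 on the minus strand for RAET1L, chr6:150390258-150390507 on the minus strand for ULBP3 and chr6:150284829-150285078 on the plus strand for ULBP1. Capitals mark matches, on either strand, to the GC box GGGCGG, to CCAAT, to the E2F spellings TTTCCCGC, TTTCGCGC, TTTGCCGC and TTTGGCGC, and to the AP-1 spellings TGACTCA and TGAGTCA.
ULBP2: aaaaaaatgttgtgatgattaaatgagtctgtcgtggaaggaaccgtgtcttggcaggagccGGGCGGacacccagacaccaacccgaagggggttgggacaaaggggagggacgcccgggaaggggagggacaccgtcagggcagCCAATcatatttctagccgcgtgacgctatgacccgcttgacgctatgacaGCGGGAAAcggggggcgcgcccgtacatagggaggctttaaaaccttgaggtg
RAET1G: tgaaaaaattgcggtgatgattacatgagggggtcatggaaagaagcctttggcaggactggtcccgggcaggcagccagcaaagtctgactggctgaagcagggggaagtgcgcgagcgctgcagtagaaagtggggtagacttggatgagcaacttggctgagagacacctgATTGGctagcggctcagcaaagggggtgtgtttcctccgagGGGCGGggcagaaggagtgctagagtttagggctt
RAET1L: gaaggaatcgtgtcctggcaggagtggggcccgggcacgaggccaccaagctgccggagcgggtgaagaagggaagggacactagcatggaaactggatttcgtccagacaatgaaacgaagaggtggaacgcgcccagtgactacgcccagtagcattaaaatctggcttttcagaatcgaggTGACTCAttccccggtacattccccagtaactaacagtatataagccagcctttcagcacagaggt
ULBP3: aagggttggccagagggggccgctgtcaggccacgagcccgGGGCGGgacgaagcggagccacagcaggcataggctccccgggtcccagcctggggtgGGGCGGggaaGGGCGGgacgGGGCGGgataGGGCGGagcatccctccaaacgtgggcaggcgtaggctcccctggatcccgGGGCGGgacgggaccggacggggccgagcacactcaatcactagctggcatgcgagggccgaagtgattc
ULBP1: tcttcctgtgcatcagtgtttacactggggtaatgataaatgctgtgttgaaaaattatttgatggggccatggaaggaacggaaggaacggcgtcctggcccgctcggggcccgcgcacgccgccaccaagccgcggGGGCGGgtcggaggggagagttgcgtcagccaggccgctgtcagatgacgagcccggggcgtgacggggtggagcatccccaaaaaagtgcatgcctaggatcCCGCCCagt

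The ULBP2 stretch held a GC box at −188 to −183, a CCAAT at −104 to −100 and an E2F spelling, read as TTTCCCGC on the opposite strand, at −53 to −46, all counted from the TSS. ULBP2 was the only member of the 8 with an E2F spelling, which 3.73% of 20094 promoters of the same length hold. RAET1L was the only member with an AP-1 spelling, TGACTCA at −66 to −60, which is present in 3.07% of promoters. ULBP3 held 6 GC boxes and no CCAAT, ULBP1 held 2 GC boxes, and RAET1G held a GC box and a CCAAT. RAET1E held 2 CCAAT and no GC box. MICA and MICB each held a GC box, with 2 CCAAT at MICA and 1 at MICB. Over all promoters the GC box is common (58.6%) and so is CCAAT (34.1%), so 6 and 5 members with a match describe the family without setting it apart. No member held the ETS spelling CCGGAAGT (5.07% of promoters) or a match to the p53 response element (0.906%). No motif overlapped another in these stretches. A match says only that the letters are present.

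Base composition also varied within the cluster. The GC content of the 250 bases ran from 50% at RAET1E to 72% at ULBP3, with ULBP2 at 58%, against a median of 63.2% over all promoters. RAET1E and RAET1G held 6 and 8 CpG, and ULBP2, ULBP1 and ULBP3 held 18, 20 and 22, against a median of 18. Aligned end to end, the stretches of MICA and MICB were 82.7% identical. Pairs at 6q25 ran from 46.5% (ULBP1 and ULBP2) to 56.1% (ULBP2 and RAET1G). Pairs taken across the 2 clusters ran from 45.4% to 49.5%, so these ranges overlapped. Since only uniquely mapped reads were kept by the authors, a near-identical copy could hide a peak. Only exact copies were counted here, so copies that differ by a few bases are not covered by the shares below. Of the stretches of 51 bases (the read length set in the peak calling) that start in the 200 bp around each TSS, 100% occurred only there in the genome at all 8 members. Across the whole promoter window the share was 93.1% at MICB, 95.8% at ULBP2 and at least 99% at the other members. Inside the genes it was lower, at 60% for ULBP2 and 59.9% for RAET1L, so the absence of peaks within those genes is less informative than at their promoters.

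ULBP2 encodes a GPI-anchored ligand and is transcribed on the plus strand (ENSG00000131015, chr6:150263150-150270371). Neither MCF10A library had a peak in its promoter or anywhere in the gene. In G12V replicate 1 a peak of 373 bp ran from −218 to +154 around the TSS with a score of 128.75, at percentile 92.6. In G12V replicate 2 a peak of 774 bp ran from −392 to +381 with a score of 281.63, at percentile 93.7. Thus both G12V lists placed the ULBP2 promoter among their better peaks, at a similar height, although the lists differ more than 3-fold in length. The scores were 2.04 and 3.87 times the median of their lists, and the ULBP2 peak scored above 84% and 78.6% of the promoters with a peak in G12V replicates 1 and 2. Both peaks cover the GC box, the CCAAT and the E2F spelling printed above and extend into the start of the transcribed sequence. Of the 20098 promoters 178, or 0.886%, were gained, and when these were ordered by the lower of their 2 G12V percentiles ULBP2 stood at rank 1. That rank describes why the gene was chosen and is no evidence of its own.

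The other members ranged from a strong peak in most libraries to none at all, and the plot of promoter peaks by member and library shows the 8 genes side by side. Together 2 of the 8 promoters (ULBP2 and RAET1E) were gained and 0 were lost, against 0.886% and 0.512% of all promoters. Since ULBP2 was behind the choice of these genes, the share is a description only. No member had a peak in all 4 libraries, a pattern shown by 15.0% of promoters, and 2 had none, as did 46.9% of promoters. Counted by library, 0 members had a promoter peak in MCF10A replicate 1, 2 in MCF10A replicate 2, 3 in G12V replicate 1 and 5 in G12V replicate 2. Over all promoters the shares in the same order were 22.2%, 44.5%, 24.2% and 47%.

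**Figure D1:**
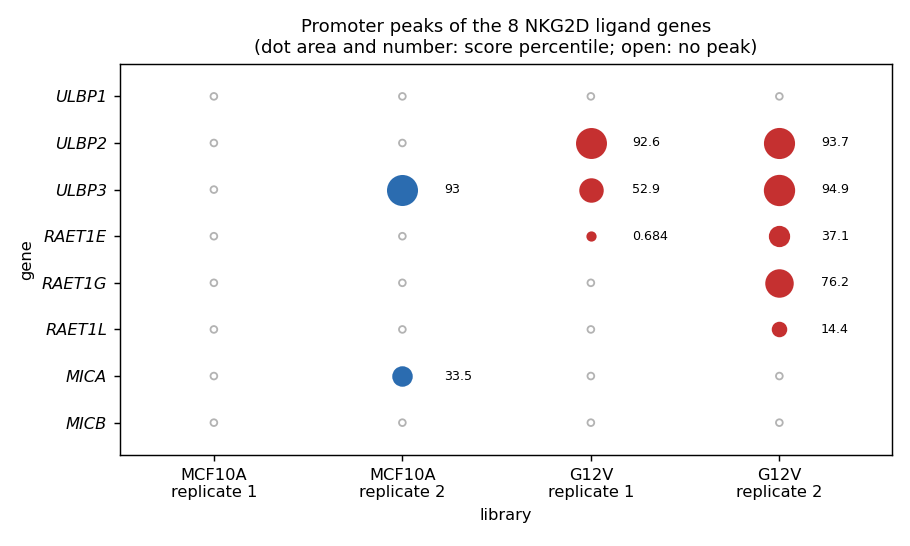
Promoter peaks of the 8 NKG2D ligand genes (rows) in the 4 libraries (columns; blue MCF10A, red G12V). Dot area and the number beside it give the highest score percentile of a peak in the promoter window, and open circles mark no peak. ULBP2 had peaks at percentiles 92.6 and 93.7 in the G12V libraries and none in MCF10A, whereas ULBP3 had peaks in 3 libraries.

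ULBP3, also GPI-anchored, was the member with the most widely called promoter (ENSG00000131019, minus strand, TSS at 150390257). It had no peak in MCF10A replicate 1. MCF10A replicate 2 had a peak of 967 bp with a score of 213.57 (percentile 93), G12V replicate 1 a peak of 615 bp with a score of 65.31 (percentile 52.9) and G12V replicate 2 a peak of 1347 bp with a score of 311.66 (percentile 94.9). The promoter was thus called before and after transformation, with the higher scores in the longer list of each cell type, and its pattern was shared by 7.44% of promoters. Unlike at ULBP2, the peaks of ULBP3 lay mostly upstream of the TSS, with midpoints at −171, −288 and −263 against −32 and −5.5 at ULBP2.

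RAET1E encodes a transmembrane ligand that is also known as ULBP4 (ENSG00000164520, minus strand, TSS at 150219249). Its promoter was gained by the same definition as that of ULBP2, but with much weaker peaks. G12V replicate 1 had a peak of 418 bp at +338 to +755 with a score of 40.45 (percentile 0.684), just above the lowest score in any list, 40, and G12V replicate 2 had a peak of 436 bp at +362 to +797 with a score of 60.1 (percentile 37.1). Among the 178 gained promoters it stood at rank 176. The region lies downstream of the TSS, in an intron of RAET1E and of the antisense RNA RAET1E-AS1, rather than over the start site. A stretch of 641 bp at 150217004 to 150217644, 1605 bp into the gene, had peaks in MCF10A replicate 2 (percentile 7.73) and G12V replicate 2 (percentile 44), and with a window of 2000 bp to either side of the TSS this peak entered the promoter and RAET1E was no longer gained. RAET1E was the only member with several peaks in its body, counting 0 in MCF10A replicate 1, 3 in MCF10A replicate 2, 2 in G12V replicate 1 and 4 in G12V replicate 2. A region of 779 bp (150209121 to 150209899), 9350 bp into the gene, was called in MCF10A replicate 2, G12V replicate 1 and G12V replicate 2, at percentiles 4.18, 8.49 and 34.4. All the peaks in RAET1E were below the median of their lists.

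RAET1G and RAET1L, both on the minus strand, had a promoter peak in G12V replicate 2 alone. At RAET1G (ENSG00000203722, TSS at 150244257) that peak covered 578 bp from −297 to +280 with a score of 129.34 (percentile 76.2). At RAET1L (ENSG00000155918, TSS at 150346668), which encodes the ligand also known as ULBP6, it covered 676 bp from −487 to +188 with a score of 45.82 (percentile 14.4). Both peaks spanned the TSS, with midpoints at −8.5 and −149.5. A call in the longest list alone was found at 5.99% of promoters, and with no peak in G12V replicate 1 neither gene can be said to differ between the cell types. ULBP1, a further GPI-anchored ligand (ENSG00000111981, plus strand, TSS at 150285079), had no peak at its promoter or within the gene in any of the 4 libraries. The nearest gained region to its TSS was that of ULBP2, at 21548 bp.

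**Figure D2:**
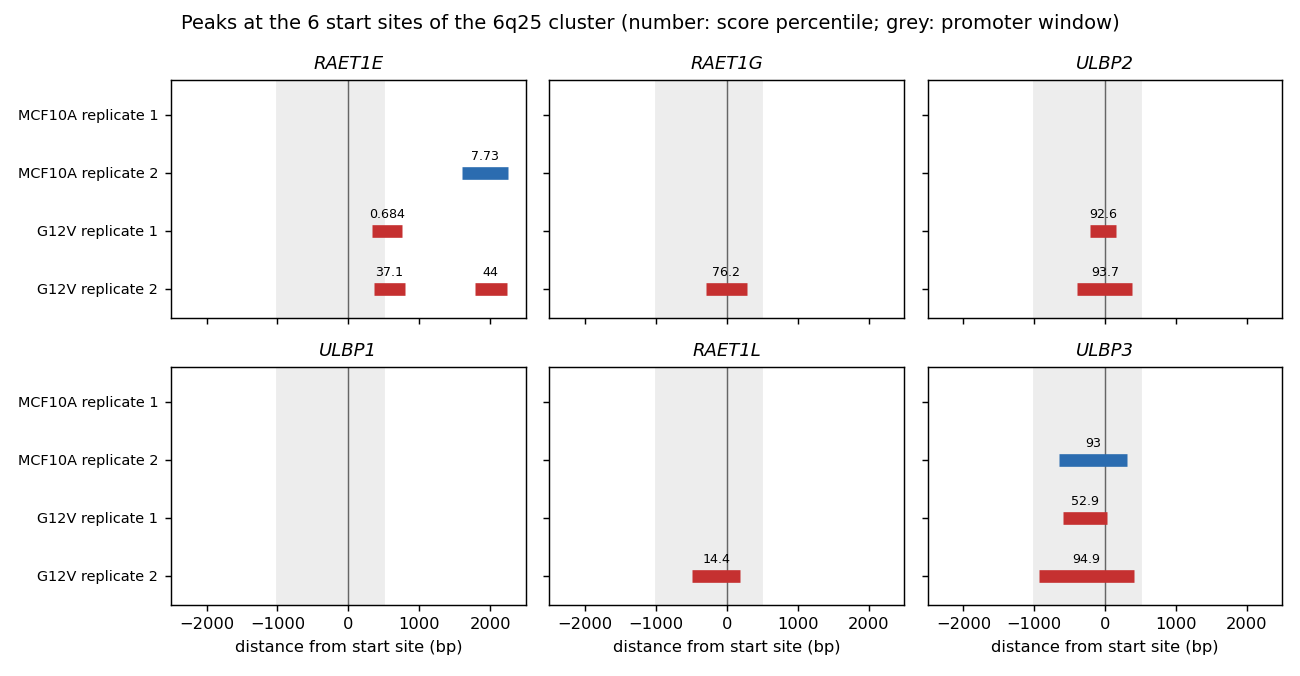
Peaks within 2500 bp of the 6 start sites of the 6q25 cluster, oriented along each gene (x axis, distance from the start site in bp) in the 4 libraries (blue MCF10A, red G12V). Bars span each peak, the numbers are score percentiles, and grey marks the promoter window of 1000 bp before to 500 bp after the start. The bars at ULBP2, RAET1G, RAET1L and ULBP3 cover the start site, whereas those at RAET1E lie downstream of it.

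The 6 genes of 6q25 share their surroundings, since their start sites span 171 kb, and were therefore also read as a single locus of all stretches within 100 kb of any of their TSSs (371 kb). The 4 lists together held 17 separate regions there. MCF10A replicate 1 had a peak in 1 of them, MCF10A replicate 2 in 7, G12V replicate 1 in 6 and G12V replicate 2 in 15. Only the regions at ULBP2 and RAET1E were gained, 11.8% of the 17 against 3.09% of the 40286 regions within 100 kb of a protein-coding TSS, and 0 were lost, against 1.92%. No region was called in all 4 libraries, against 10.1%, and 7 of 17 were called in G12V replicate 2 alone, a pattern shown by 31.5% of the regions near genes. Measured against the length of each list, the locus held 0.776 and 2.32 peaks per 10000 in MCF10A replicates 1 and 2 and 4.27 and 3.21 in G12V replicates 1 and 2. Both G12V values were above both MCF10A values, with means of 1.55 ± 1.09 in MCF10A and 3.74 ± 0.749 in G12V (SD, n = 2 libraries each). The difference between the means was 2.19 per 10000 peaks, and it was 3.5 between the libraries numbered 1 and 0.893 between those numbered 2. With 2 libraries on each side an exact permutation test cannot go below 0.333, and the locus was chosen for a gained region, so no test of this difference is given. Without MCF10A replicate 1 the difference was 1.42. It also rests on few peaks, 1 and 8 in the MCF10A lists and 6 and 15 in the G12V lists.

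**Figure D3:**
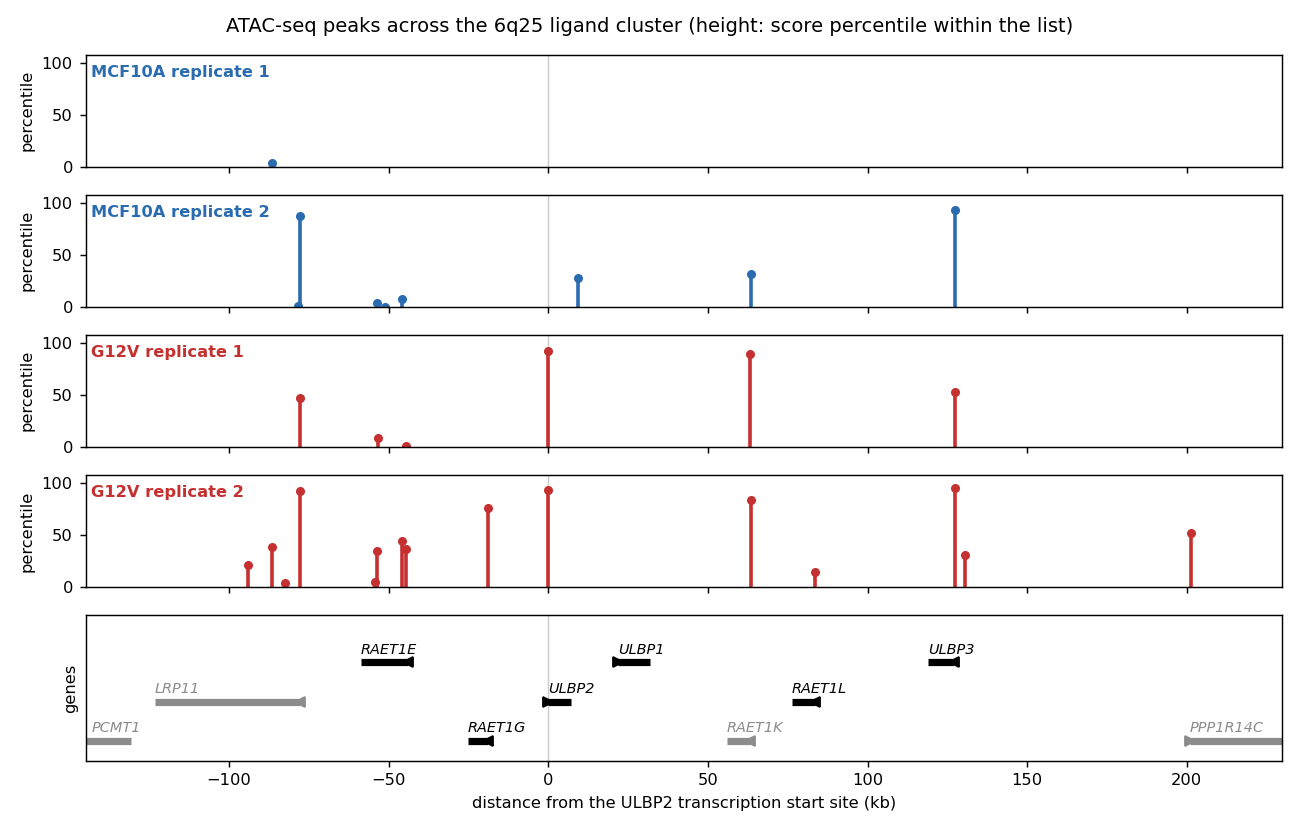
Peaks across the 6q25 ligand cluster in the 4 libraries (blue MCF10A, red G12V), by distance from the ULBP2 TSS in kb (x axis) and score percentile (y axis), above the genes (black, NKG2D ligand genes; grey, other genes; arrowheads at the start sites). At 0 kb only the G12V libraries have a peak, at percentiles 92.6 and 93.7, while the ULBP3 promoter has peaks in 3 libraries.

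With the full lists, the ULBP2 promoter was the only region of its locus gained with high scores. The region at the noncoding gene RAET1K, whose start site lies 63152 bp away, came close. Its peaks stood at percentiles 89.8 and 84 in G12V replicates 1 and 2. It was not gained because MCF10A replicate 2 had a peak there, at percentile 31.8. With lists cut to equal length, the RAET1K region was gained as well. With the full lists and besides RAET1E, 44239 bp to the left, the nearest gained region lay 461321 bp to the right (150724471 to 150725483, 34323 bp from the TSS of IYD). The nearest lost regions were 5266192 bp to the left and 1110153 bp to the right, and the nearest regions called in all 4 libraries were 908909 bp and 327641 bp away. A region of 474 bp called in MCF10A replicate 2 alone (150272300 to 150272773, percentile 27.5) lay 9150 bp from the ULBP2 TSS, past the end of the gene, and was the nearest MCF10A peak. At the limit of 100 kb, the region just inside was 73867 bp from ULBP3 and the region just outside was 100638 bp from it, each called in a single library.

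The 5 genes elsewhere in the genome with the promoter patterns closest to ULBP2 were found by the Euclidean distance of their highest promoter percentiles over the 4 libraries with 0 for no peak. They were ATP5MC3, encoding a membrane subunit of the mitochondrial ATP synthase (distance 7.93), the T-box factor gene TBX2 (8.62), NANOS1, which encodes an RNA-binding protein (13.4), and TLR4, the receptor of bacterial lipopolysaccharide, which shares its promoter peaks with ENSG00000285082 (13.7). ATP5MC3 had weak peaks in both MCF10A libraries, at percentiles 2.84 and 6.55, and strong ones in G12V, at 89.2 and 93.3. TBX2 had none in MCF10A and percentiles 90.4 and 85.3 in G12V. These likenesses rest on 4 values each.

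MICA and MICB encode transmembrane ligands with the immunoglobulin-like domain of class I heavy chains, which the ULBP proteins lack. They showed no gained and no lost promoter, which does not set them apart, since 0.886% of all promoters were gained and 0.512% lost. MICA (ENSG00000204520, plus strand, canonical TSS at 31371372) had a promoter peak in MCF10A replicate 2 alone, of 461 bp from −47 to +413 with a score of 58.53 (percentile 33.5), a pattern found at 4.17% of promoters. In G12V replicate 2 a peak of 303 bp at 31367708 to 31368010 (score 52.58, percentile 27) lay 3362 bp upstream of that TSS, within the MICA gene record, which starts earlier through other transcripts. MICB (ENSG00000204516, plus strand, canonical TSS at 31465922) had no peak at its promoter or in the gene in any library. The closest to it, 3996 bp upstream in an intron of MICB-DT, was called in MCF10A replicate 2 alone (31461682 to 31461926, percentile 50.6).

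Within 100 kb of either MIC start site the lists held 6 regions, of which 0 were gained, 0 lost and 0 called in all 4 libraries. Of all regions within 100 kb of a protein-coding TSS, 3.09% were gained, 1.92% lost and 10.1% called in all 4. At such shares, 0 of 6 does not set the locus apart. MCF10A replicates 1 and 2 had peaks in 1 and 4 of them, and G12V replicates 1 and 2 in 0 and 2. Per 10000 peaks these were 0.776 and 1.16 in MCF10A and 0 and 0.429 in G12V, with means of 0.968 ± 0.272 and 0.214 ± 0.303 (SD, n = 2 libraries each). Thus the G12V values were below the MCF10A values in the MIC locus and above them at 6q25. The difference at MIC, −0.754 per 10000 peaks, was −0.776 between the libraries numbered 1 and −0.732 between those numbered 2. It was −0.29 with the better-scoring 50% of each list and −0.388 with lists cut to equal length. It rests on 7 peaks in all, and whether the loci differ in direction was not tested. The region just inside the limit lay 49206 bp from MICB and the region just outside, 121807 bp from it (31587729 to 31588147), was gained.

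**Figure D4:**
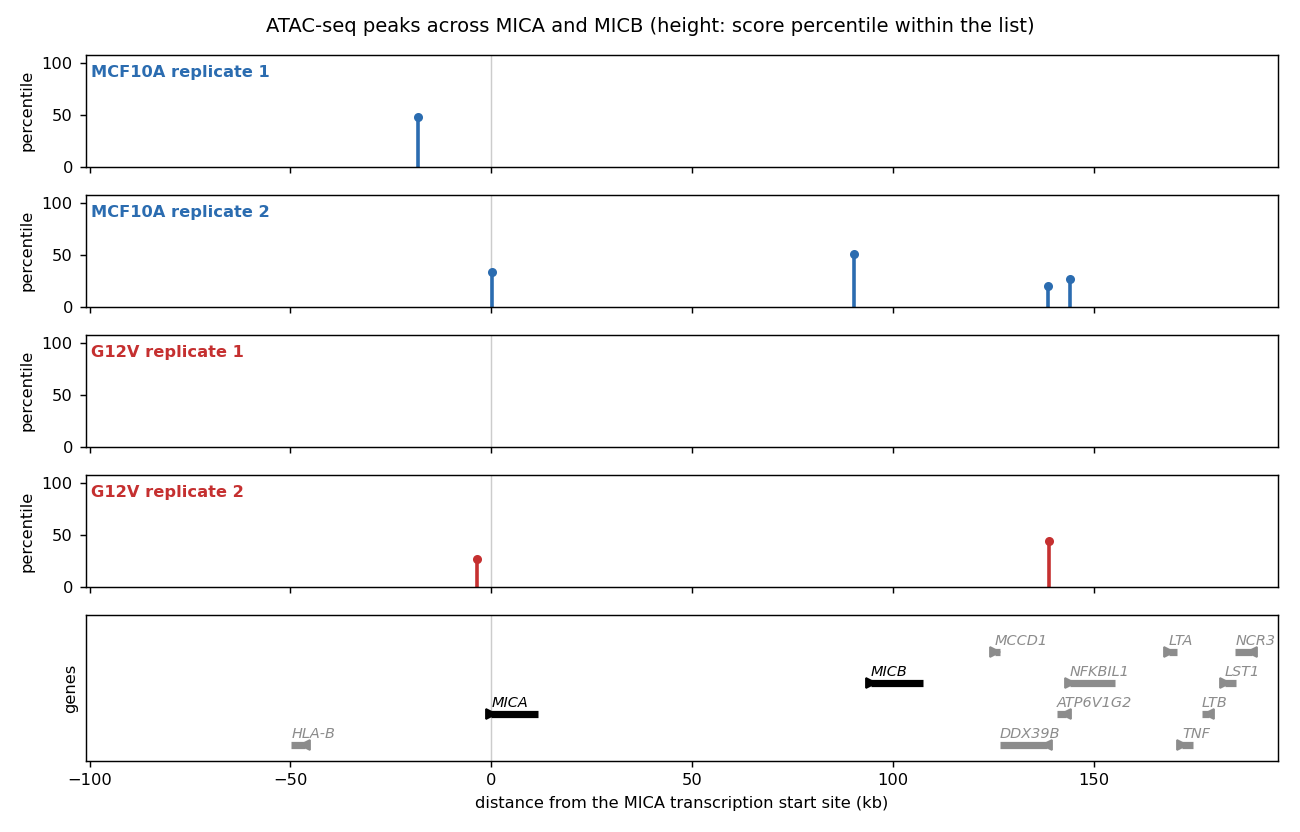
Peaks across MICA and MICB in the 4 libraries (blue MCF10A, red G12V), by distance from the MICA TSS in kb (x axis) and score percentile (y axis), above the genes (black, MICA and MICB; grey, other genes; arrowheads at the start sites). The 4 lists hold 1, 4, 0 and 2 peaks there, and no position is shared by both libraries of either cell type.

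The other genes through which NK cells read a target were examined at their promoters to set the ligands in their pathway. Of 24 such genes 0 were gained and 0 were lost, 5 had a promoter peak in all 4 libraries and 8 had none. Over all promoters 0.886% were gained, 0.512% lost, 15.0% had a peak in all 4 libraries and 46.9% had none. At such low shares, 0 gained and 0 lost among 24 genes does not set the list apart. The counts with a peak were 6 and 14 in the MCF10A libraries and 7 and 14 in the G12V libraries, close between the cell types and higher in the longer list of each. KLRK1 and its signalling adaptors HCST and TYROBP, which belong to the lymphoid and myeloid side of the contact, had no peak in any library. Among enzymes that take part in shedding ligands from the surface, the metalloproteinase gene ADAM10 and the disulfide isomerase gene PDIA6 had peaks in all 4 libraries, ADAM17 in both MCF10A libraries and G12V replicate 2, and MMP14 in G12V replicate 2 alone (percentile 9.66). The DNA damage kinases that act upstream of ligand induction had promoter peaks in both cell types: ATM and ATR had peaks in all 4 libraries, with ATM at percentiles 95.6 and 98.3 in MCF10A and 88.6 and 99.3 in G12V, and CHEK1 in all but MCF10A replicate 1. Of 9 genes of class I presentation, which NK cells read through other receptors, TAP1 had peaks in all 4 libraries at percentiles between 20.4 and 24.9, B2M in 3, and HLA-B and HLA-G in none. HLA-C, HLA-E and HLA-F had peaks in the libraries numbered 2 of both cell types. Of 5 genes for ligands of other NK cell receptors, PVR, a ligand of DNAM-1, had a peak in MCF10A replicate 2 alone (percentile 41.7), CLEC2B in replicate 2 of both, and NECTIN2, NCR3LG1 and CLEC2D in none.

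**Figure D5:**
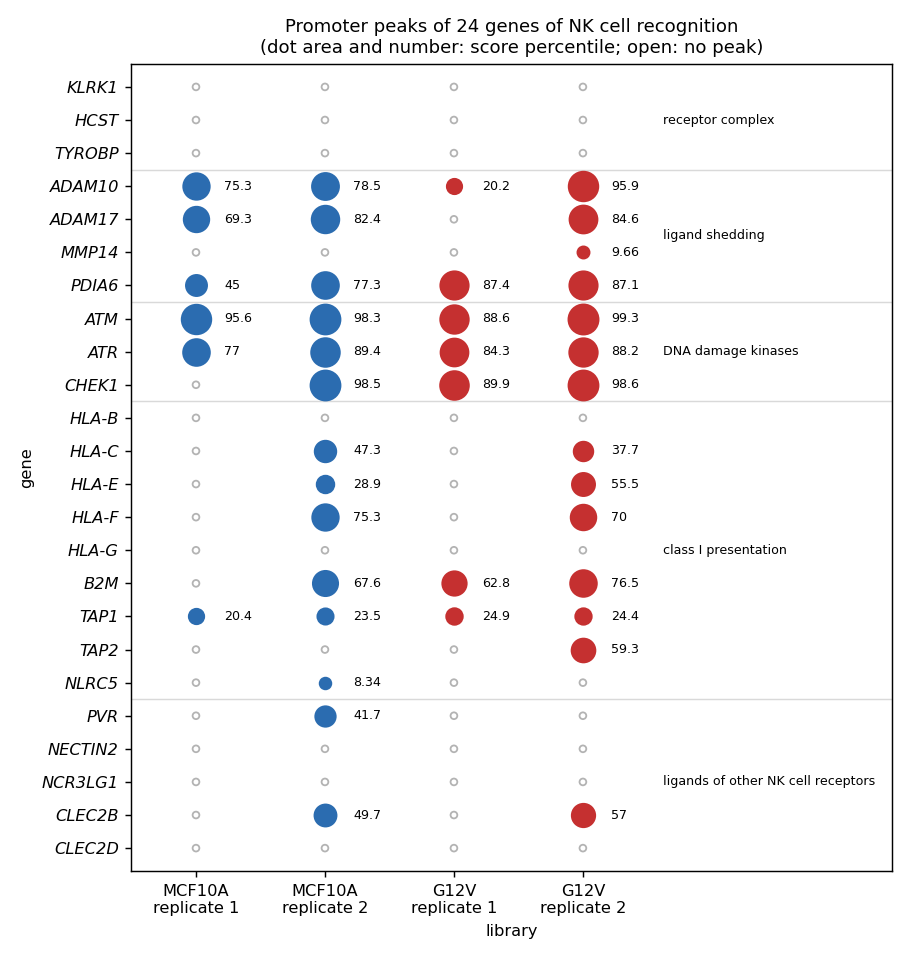
Promoter peaks of 24 genes of NK cell recognition (rows, grouped by role) in the 4 libraries (columns; blue MCF10A, red G12V). Dot area and number give the highest score percentile of a promoter peak and open circles mark no peak. No gene has filled dots in both G12V columns and open circles in both MCF10A columns.

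How far a call rested on list length was checked by cutting each list to its best 12888 peaks, the size of the shortest. The ULBP2 promoter was then still gained, and ULBP3 kept its 3 libraries. RAET1G kept its peak in G12V replicate 2, whereas the peaks of RAET1E, RAET1L and MICA fell below the limit. ULBP2 was also gained with the better-scoring 50% of each list and with a window of 2000 bp to either side of the TSS, whereas RAET1E was gained under neither. For ULBP2 these outcomes, and that with equal lists, followed from its values. Its G12V percentiles were 92.6 and 93.7, and the nearest MCF10A peak was 9150 bp from the TSS. When a single library was left out, so that 1 library stood for its cell type, RAET1G and RAET1L were gained without G12V replicate 1, ULBP3 was gained without MCF10A replicate 2, and MICA was lost without MCF10A replicate 1. The calls at these 4 genes therefore turned on 1 library each. A promoter already gained over all 4 libraries, as at ULBP2 and RAET1E, stays gained by definition when a library is left out.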

How the data were processed

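ATAC-seq was measured in MCF10A and G12V cells, with 2 libraries each, grouped by the labels. The authors aligned reads with Bowtie to hg19 keeping unique reads, moved each read start to the midpoint of the transposase contact, and then ran MACS (tag size 51, shift size 75, local window 25000, p threshold 0.0001). The deposited lists hold a peak per line with a score, which equals 10 times −log10 p per the values and the caller's format. They were called per library, and the authors' pooled calls were not used here. The lists carry no read counts, so no counting interval is given.

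Peaks of the autosomes and X were merged where they shared at least 1 bp (60886 regions, of which 1951 were gained and 1303 lost). Transcripts came from GENCODE release 44 lifted to GRCh37, and for 19819 of 20098 genes the canonical tag set the TSS. Sequences were read from the GRCh37 genome. Python 3.11.15, numpy 2.4.6, pysam 0.24.0 and Biopython 1.88 were used. The merging and calling code was run on simulated lists with planted sites that met the definitions of gained and lost. That run checks the code only and not how often a call is false. The named genes were the members, protein-coding genes with a TSS within 100 kb, list genes gained or lost, the 5 closest patterns to ULBP2, and HRAS. Other pathway and marker genes were named after their values were seen. A gene of the pathway list is not reported here and was left out of its counts. Members and lists were chosen with earlier results of these data known. Alternatives concerned list length, score, window, TSS, merging, distance, replicate rule and left-out libraries.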

Additional observations from a re-analysis of the deposited data

How the results depend on the processing

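Of 146 comparisons with an alternative setting, 93 kept their call or stayed within 1.5 times the value given, 53 moved and 0 reversed. For the densities of peaks the limit was the smaller replicate SD. Only the ULBP2 call and the densities could be scored as reversed, so the 0 says nothing about the counts and shares. A kept count need not mean the same regions. With the better-scoring 50% of each list and with equal lists, 2 regions were again gained at 6q25. RAET1E dropped out, however, and the region at RAET1K took its place beside ULBP2. The ULBP2 call held with the better-scoring 50% of each list, with equal lists and with the 2000 bp window. These outcomes were fixed by values given above and are no added support. Its G12V peaks stood at percentiles 92.6 and 93.7, and the nearest MCF10A peak lay 9150 bp from the TSS. The other settings could not change it, by the definition of gained or because the gene has a single annotated TSS. The difference in peaks per 10000 kept its sign at both loci, which leaving out a library could not reverse since the cell types did not overlap. At 6q25 it was 1.42 to 2.97 with a library left out (1.42 without MCF10A replicate 1, 2.97 without MCF10A replicate 2), against 2.19. At MIC it was −0.29 with the better-scoring 50% and −0.388 with equal lists, against −0.754. The number of member promoters gained was 1 in place of 2 with the better-scoring 50% of each list and with equal lists. It was also 1 with a window of 2000 bp either side and with the TSS of every transcript. The shares of all promoters gained were, in the same order, 0.821%, 1.17%, 0.911% and 0.955%. With equal lists 1.35% of all promoters were lost, above the share gained. With the full lists the share lost, 0.512%, was below the share gained, 0.886%.

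When a peak in either replicate sufficed, 9 regions were gained and 2 lost at 6q25, and 1 gained and 4 lost at MIC. For these region counts and those that follow, the share over all regions near genes was not computed, so they were not set against it. The same rule gave 4 member promoters gained and 1 lost, and 2 pathway promoters gained and 2 lost. Of all promoters, 7.25% were gained and 5.24% lost. Leaving out 1 library gave 2 to 9 gained and 0 to 2 lost regions at 6q25 (6 without MCF10A replicate 2, 9 without G12V replicate 1, and 2 lost without MCF10A replicate 1). At MIC it gave 0 to 1 gained (1 without G12V replicate 1) and 0 to 3 lost (3 without MCF10A replicate 1, 1 without MCF10A replicate 2). It gave 2 to 4 member promoters gained (4 without G12V replicate 1), 0 to 1 lost (1 without MCF10A replicate 1), 0 to 2 pathway promoters gained (2 without MCF10A replicate 2 or G12V replicate 1) and 0 to 2 lost (2 without MCF10A replicate 1, 1 without G12V replicate 2). Over all promoters, 1.03% to 8.32% were gained (8.32% without MCF10A replicate 2, 6.88% without G12V replicate 1) and 0.577% to 5.86% lost (4.68% and 1.07% without MCF10A replicates 1 and 2, 5.86% without G12V replicate 2).

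With the replicate block, taking the pair numbered 1 and then the pair numbered 2, 6 and 10 regions were gained and 1 and 2 lost at 6q25, 0 and 1 gained and 1 and 3 lost at MIC, 3 and 4 member promoters gained and 0 and 1 lost, 2 and 2 pathway promoters gained and 1 and 2 lost, and 9.03% and 7.62% of all promoters gained and 7.02% and 5.07% lost. The libraries share only a number: over 5090 regions called in all 4, replicate differences in percentile correlated between the cell types at r = 0.127, across regions that are not independent. These counts need a peak in fewer libraries by construction, so all promoters moved with the members.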

Other observations

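Genes beside the ligands gave further values. RAET1K, a noncoding relative in the 6q25 cluster whose start site lies 63152 bp from that of ULBP2, had a peak near its start in MCF10A replicate 2 (score 57.43, percentile 31.8), G12V replicate 1 (score 116.2, percentile 89.8) and G12V replicate 2 (score 170.39, percentile 84). The percentile was thus higher in both G12V libraries than in the MCF10A library that had the peak, and MCF10A replicate 1 had none. LRP11, a neighbour 33754 bp from RAET1E that encodes a lipoprotein receptor-related protein, had a promoter peak in the same 3 libraries, at percentiles 87.2, 47.6 and 92.6. ENSG00000285991, a gene model that overlaps RAET1E, had peaks in MCF10A replicate 2 and G12V replicate 2, at percentiles 7.73 and 44. PPP1R14C, 73923 bp from ULBP3, had a peak in G12V replicate 2 alone (percentile 52).

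Around MICA and MICB, the helicase gene DDX39B had a promoter peak in replicate 2 of MCF10A (percentile 19.8) and of G12V (percentile 44.1). NFKBIL1, ATP6V1G2 and ATP6V1G2-DDX39B shared a peak in MCF10A replicate 2 alone (percentile 26.4). HLA-B, MCCD1, LST1, the cytokine genes TNF, LTA and LTB, and NCR3, which encodes the NK cell receptor NKp30, had no promoter peak in any library.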
